A study of Homo sapiens with 19 samples.

Results

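Differentiated HepaRG cells treated with interferon alpha (IFNa) were compared with the control cells of the same batch, which were transfected with the negative control siRNA (siNC). The comparison was defined by sample labels alone and took 5 of the 19 RNA sequencing libraries of the series: 2 IFNa libraries and 3 siNC control libraries, all of batch 2. IFNa was given at 1000 U/mL from the day of transfection and stayed in the medium when it was replaced 24 h and again 48 h later, the last time by a serum-free one. The siRNA dose was 20 nM, and the sources used here do not give whether the IFNa wells also received siNC. If they did not, IFNa and the lack of siRNA cannot be told apart. HepaRG is an established human hepatic line from which cultures of hepatocytes and biliary cells can be differentiated. The series also holds siRNA knockdowns of the RNA editing enzymes ADAR and ADARB1, and the kinase inhibitor BX795 at 1 µM, alone or with the ADAR siRNA. Nothing in the labels ties the replicates to separate cultures, so each p-value measures only the spread between these libraries, which may be technical. With bulk RNA, fewer cells of a type and less RNA per cell cannot be told apart.

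Type I interferons bind a receptor made of IFNAR1 and IFNAR2, whose kinases JAK1 and TYK2 phosphorylate STAT2 and related factors. With IRF9 these enter a complex that binds the interferon stimulated response element in the promoters of interferon stimulated genes. The products block virus replication, sense viral RNA, present antigen or damp the signal, and hepatocytes are a main responding cell in interferon treatment of viral hepatitis.

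The libraries were deep but unequal, with 34.72 M and 25.03 M counts (M, mega) in IFNa replicates 1 and 2, against 22.76 M, 15.56 M and 13.08 M in control replicates 1, 2 and 3. They also differed in how levels followed the GC content of genes. The difference between genes over 60% GC and genes under 40% GC was -0.37 and 0.09 (log2) in the IFNa libraries, against 0.25, 1.03 and 0.85 in the controls. Control replicates 2 and 3 thus stood apart from replicate 1, and both IFNa libraries lay below all 3 controls. The 3 BX795 libraries of the batch lay at -0.63 to -0.23. In all 5 libraries hepatocyte markers were abundant, with a summed level of 12383 to 13164 CPM (counts scaled to library size) with IFNa and 13269 to 15885 CPM in controls, while biliary or progenitor markers summed to 157 to 184 CPM with IFNa and 202 to 285 CPM in controls, and immune markers to 39.9 to 42.9 CPM with IFNa and 37.8 to 43.6 CPM in controls. Mesenchymal markers summed to 418 to 448 CPM with IFNa and 411 to 430 CPM in controls. Endothelial markers summed to 677 to 749 CPM with IFNa and 443 to 497 CPM in controls, nearly all of it from KDR. KRT19 and SOX9 were present among the biliary markers and CD68 and CD14 among the immune ones, and EPCAM and NKG7 were at 0 counts.

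Across 20718 tested genes, 2457 were higher with IFNa (11.9%) and 2248 were lower (10.9%), 22.7% in all, at an adjusted p below 0.05 by the quasi-likelihood test of edgeR (Benjamini-Hochberg adjustment). Most changes were small: 293 genes rose and 550 fell by at least 2-fold, and 89 rose and 109 fell by at least 4-fold. The calls followed GC content, with 534 genes higher and 40 lower among 1904 under 40% GC, against 23 higher and 833 lower among 2613 over 60% GC. After each library's GC trend was removed, 1871 genes were higher (9.03%) and 1947 lower (9.4%), 18.4% in all, and the class over 60% GC held 204 higher and 214 lower. Genes called the same way in both fits numbered 1391 higher (6.71%) and 1339 lower (6.46%). Each result below is therefore given with its GC-corrected value where that ends the call, turns the direction or moves the value over 1.5 times. Counts called in each list are to be read beside the shares of all tested genes, 11.9% higher and 10.9% lower. The total also rested on single libraries: 263 genes were called without IFNa replicate 1, and 291 (1.35%) with control replicate 1 as the only control, 0.837% higher and 0.508% lower. Of 267 tested genes of the naming rule, 121 lost their call without IFNa replicate 1, 29 without IFNa replicate 2, and 1, 54 and 59 without control replicates 1, 2 and 3. Some of the 267 were not called to begin with and had no call to lose, so the share lost is larger among the called ones. Under the 15 settings run, 150 genes were called higher in every one (0.724%) and 60 lower in every one (0.29%), and 67 of those 150 were interferon stimulated genes of the list below.

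Of 8 genes of the receptor and its relay, 3 rose and both receptor chains were lower. IRF9, the DNA-binding part of the complex, had 79.1 and 74.1 CPM with IFNa, against 14.4, 14.2 and 12.2 CPM in controls (log2 2.49 ± 0.11 SE, adjusted p = 1.31e-07). STAT2 had 776 and 778 CPM against 394, 390 and 370 CPM in controls, a smaller rise of 1.01 ± 0.08 (adjusted p = 1.47e-05). Both IFNa libraries lay above every control for these 2 genes, which rose under every setting. The receptor chains moved the other way: IFNAR1 had 111 and 105 CPM with IFNa, against 145, 162 and 177 CPM in controls (log2 -0.58 ± 0.10, adjusted p = 0.00486). IFNAR2, the chain that holds most of the ligand-binding strength, had 52.3 and 57.5 CPM with IFNa, against 72.7, 89.4 and 95.1 CPM in controls (-0.64 ± 0.12, adjusted p = 0.00792). The groups did not overlap for either chain, but neither passed without IFNa replicate 1 (adjusted p = 0.0608 for IFNAR1 and 0.134 for IFNAR2) or with control replicate 1 as the only control (0.0596 and 0.136). The kinases JAK1 and TYK2 were not called, at 0.21 ± 0.11 and -0.40 ± 0.13, nor was STAT3, at 0.02 ± 0.09.

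Of 7 tested interferon regulatory factors, 1 rose and 1 fell. IRF7, which amplifies interferon production, had 35.9 and 46.9 CPM with IFNa, against 5.43, 6.85 and 6.6 CPM in controls (log2 2.73 ± 0.24, adjusted p = 4.56e-05). It is a GC-rich gene and rose by 3.39 on the log2 scale after GC correction. IRF3, the factor that acts before interferon is made, was lower at -0.70 ± 0.18 (adjusted p = 0.0225) and -0.32 after GC correction (adjusted p = 0.0277), and was called in 9 of the 15 settings. IRF1, with 45.3 and 50 CPM with IFNa against 43.1, 58.8 and 50.3 CPM in controls, overlapped between the groups.

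Among regulators that damp the signal, USP18 was the clear riser. USP18, which removes ISG15 from proteins and blocks signalling at IFNAR2, had 52.0 and 51.6 CPM with IFNa, against 6.42, 7.99 and 5.54 CPM in controls (log2 2.96 ± 0.14, adjusted p = 1.91e-07). The SOCS family of JAK inhibitors was not higher. SOCS1 and SOCS3 were called lower at -0.84 ± 0.22 (adjusted p = 0.0254) and -0.57 ± 0.16 (adjusted p = 0.0282), yet GC correction took SOCS1 to -0.15 (adjusted p = 0.48) and turned SOCS3 to 0.18 (adjusted p = 0.404). CISH followed the same course, at -0.36 and then -0.09 (adjusted p = 0.46).

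The interferon stimulated genes rose nearly as a whole. Of 76 tested members, 72 were called higher (94.7%) and 0 lower, beside 11.9% of all tested genes called higher. Their median log2 fold change was 2.02, against -0.02 over all tested genes. Both IFNa libraries lay above all 3 controls for 74 of the 76, a pattern that 25.3% of all tested genes had. With GC correction 74 were called higher, with a median of 1.95, and between 67 and 74 were called under each setting, single-control and left-out libraries included. As a share of all counts these genes took 1.78% and 1.85% with IFNa, against 0.366%, 0.375% and 0.345% in controls. The 4 members not called were PARP10, PARP11, GBP2 and PML, named here after their values were seen. After GC correction PARP10 (1.27, adjusted p = 3.12e-05) and PML (0.63, adjusted p = 8.53e-05) passed, and PARP11 and GBP2 did not.

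**Figure D1:**
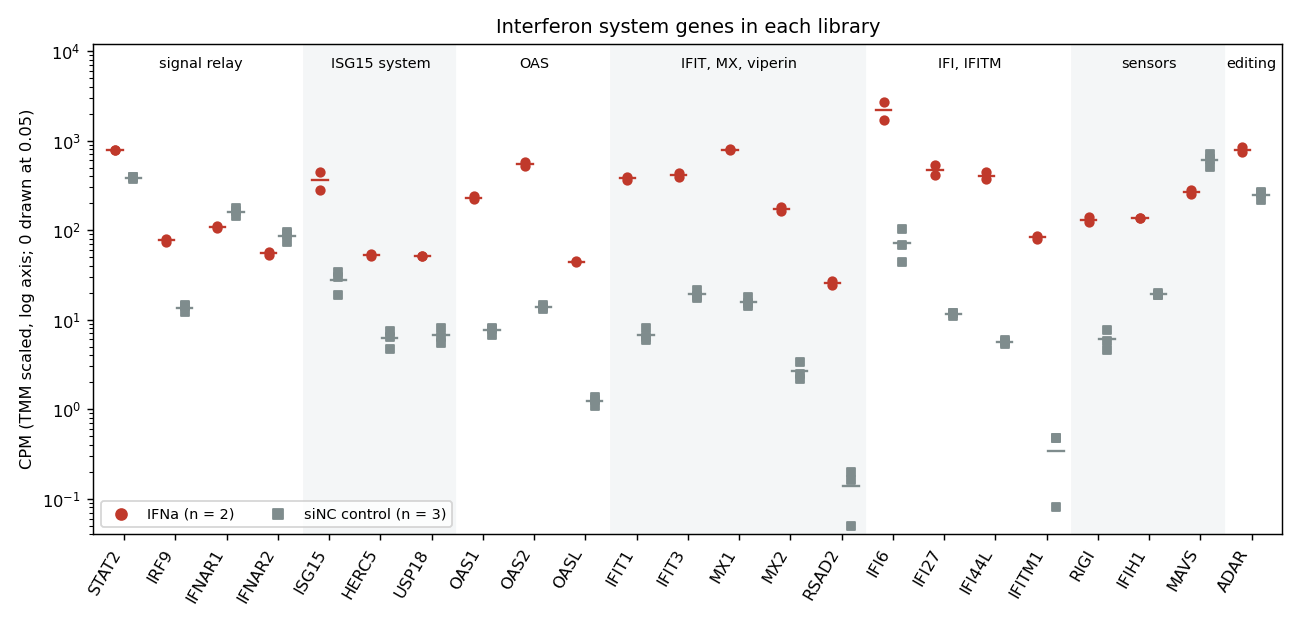
Level in CPM (y axis, log scale) of genes of the interferon system in each library, with the IFNa libraries as circles, the controls as squares and the group means as lines. A control library at 0 is drawn at 0.05 CPM. Both IFNa circles lie above every control square except for IFNAR1, IFNAR2 and MAVS, where they lie below.

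The ISG15 system, which attaches the ubiquitin-like protein ISG15 to other proteins, rose in all 7 members. ISG15 itself had 280 and 448 CPM with IFNa, against 18.8, 34.3 and 29.6 CPM in controls (log2 3.73 ± 0.29, adjusted p = 1.46e-05). The 2 IFNa libraries differed for this GC-rich gene, and its rise was 4.27 after GC correction. HERC5, its main ligase in human cells, rose by 3.12 ± 0.16 and the related HERC6 by 4.64 ± 0.14. The activating enzyme UBA7 (1.15 ± 0.13) and the conjugating enzyme UBE2L6 (1.91 ± 0.14) rose less.

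The OAS enzymes sense double-stranded RNA and make a short-chain messenger that leads to RNA decay. OAS2 had 577 and 517 CPM with IFNa, against 13, 14 and 14.6 CPM in controls (log2 5.31 ± 0.11, adjusted p = 2.68e-10). OAS1, OAS3 and OASL rose to a like extent, by 4.91, 4.74 and 5.18.

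All 8 tested genes of the IFIT, MX and viperin group were higher in every setting. IFIT1, which binds viral RNA that lacks a host cap, had 394 and 365 CPM with IFNa, against 5.99, 6.38 and 8.06 CPM in controls (log2 5.82 ± 0.12, adjusted p = 2.68e-10). MX1, a GTPase that traps viral nucleocapsids, had 787 and 802 CPM against 14.1, 18.1 and 15.2 CPM in controls (5.65 ± 0.14, adjusted p = 7.23e-10). MX2 rose by 6.04 ± 0.16. The groups were far apart for each of these genes, and replicates lay close together. RSAD2, or viperin, which makes a chain-terminating nucleotide, had 27.3 and 24.5 CPM with IFNa, against 0, 0.201 and 0.163 CPM in controls. With only 5 control counts in all, its log2 fold change of 7.94 ± 0.52 is imprecise. Its genomic neighbour CMPK2, a nucleotide kinase, had 16.3 and 15.5 CPM against 0.0862, 0.336 and 0.163 CPM in controls (6.42 ± 0.34, adjusted p = 4.13e-07).

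The IFI and IFITM genes rose in 10 of 10 cases, over a wide range. IFITM1, a membrane protein that hinders virus entry, had 86.8 and 79.5 CPM with IFNa, against 0.474, 0.470 and 0.0814 CPM in controls (log2 7.78 ± 0.24, adjusted p = 2.49e-09). Its close relatives IFITM2 (0.65 ± 0.10) and IFITM3 (1.36 ± 0.11) started from 100 to 103 CPM and from 255 to 283 CPM in controls. Reads of these similar genes may be shared in counting, which makes their separate values less certain. IFI6, a mitochondrial and ER protein, reached 1688 and 2689 CPM with IFNa, against 43.6, 68.2 and 104 CPM in controls (4.94 ± 0.35, adjusted p = 7.28e-06). IFI44L and IFI27 rose by 6.16 ± 0.14 and 5.35 ± 0.15, while the lysosomal reductase IFI30 rose by 0.61 ± 0.10 (adjusted p = 0.0631 without IFNa replicate 1).

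Of the PARP and GBP genes 8 of 11 rose. PARP9 (2.83 ± 0.13) and its partner DTX3L (1.93 ± 0.11), which act together in ADP-ribosylation and DNA repair, rose under every setting, as did PARP14 (2.34 ± 0.10). GBP1, a large GTPase, rose by 1.59 ± 0.10 and GBP5 by 3.18 ± 0.38, whereas GBP2 had 101 and 93.5 CPM with IFNa, against 87.4, 82.9 and 74.4 CPM in controls (0.25 ± 0.10, adjusted p = 0.0977).

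Among the other effectors 34 of 35 tested genes rose. Examples are DDX60 (3.91 ± 0.16), XAF1 (3.69 ± 0.10), EPSTI1 (3.24 ± 0.13) and the dendritic cell marker LAMP3 (4.19 ± 0.32), which rests on 21 control counts. ADAR, the double-stranded RNA editing enzyme that the series knocks down (chr1:154582057-154627997, GRCh38.p14), has an interferon-driven long isoform. It had 839 and 742 CPM with IFNa, against 266, 259 and 215 CPM in controls (log2 1.68 ± 0.11, adjusted p = 2.91e-06), and rose in all 15 settings. The gene table does not split the isoforms. ADARB1, the related editing enzyme, was not called, at -0.01 ± 0.09 (adjusted p = 0.93).

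The promoters of these genes were read for the core of the response element, as the data bear on genes that rose together. The core was searched as GAAA, any 2 bases and GAAA on both strands, within 250 bases before to 50 bases after the RefSeq start (build GRCh38.p14). Of the 76 tested interferon stimulated genes 59 had a promoter entry, and 35 of these (59.3%) held the core. Among all tested genes with an entry the share was 3.06%, and among all promoters in RefSeq's set it was 3.65%. Of genes that rose in every setting but were outside the list, 17 of 60 with an entry held it (28.3%). Of the larger set outside the list that rose both without and with GC correction, 51 of 987 held it (5.17%), and of genes that fell in every setting 2 of 47 (4.26%). A match is a description of letters, not proof of a bound site, and RSAD2 and OAS1 had no match in this window although they rose. The windows shown are 60 bases upstream of the start of 6 strongly rising genes, 5′ to 3′ on the gene's strand, with the core in capitals (TTTC, any 2 bases and TTTC is the same core on the other strand).
IFITM1, chr11:313975-314034, plus strand: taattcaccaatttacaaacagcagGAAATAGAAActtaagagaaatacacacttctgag
IFI44L, chr1:78620259-78620318, plus strand: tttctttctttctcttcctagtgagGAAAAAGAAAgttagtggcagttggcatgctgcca
IFIT1, chr10:89392482-89392541, plus strand: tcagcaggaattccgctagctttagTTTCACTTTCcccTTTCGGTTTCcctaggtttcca
IFI27, chr14:94110603-94110662, plus strand: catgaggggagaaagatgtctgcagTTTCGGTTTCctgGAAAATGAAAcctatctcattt
OAS3, chr12:112938306-112938365, plus strand: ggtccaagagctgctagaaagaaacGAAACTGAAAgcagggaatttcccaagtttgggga
ISG15, chr1:1013359-1013418, plus strand: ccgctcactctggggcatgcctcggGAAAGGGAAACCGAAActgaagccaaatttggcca
The core stood once in the windows of IFITM1, IFI44L and OAS3, and as a pair in those of IFIT1, IFI27 and ISG15, overlapping in ISG15.

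The sensors of viral RNA rose, while the adaptor they share fell. RIGI, which senses uncapped RNA ends, had 139 and 122 CPM with IFNa, against 7.71, 4.63 and 5.70 CPM in controls (log2 4.41 ± 0.18, adjusted p = 3.59e-08). IFIH1 (MDA5), the sensor of long double-stranded RNA, had 138 CPM in both IFNa libraries, against 18.7, 19.9 and 19 CPM in controls (2.85 ± 0.10, adjusted p = 1.1e-08). DHX58 (2.17 ± 0.15), the kinase PKR encoded by EIF2AK2 (1.83 ± 0.11) and the endosomal receptor TLR3 (1.47 ± 0.20) rose as well. MAVS, the mitochondrial adaptor of RIGI and IFIH1, had 256 and 283 CPM with IFNa, against 501, 618 and 717 CPM in controls. The groups were well apart, and MAVS fell by 1.18 on the log2 scale (SE 0.15, adjusted p = 0.000889) and in all 15 settings. The BX795 libraries had 386, 362 and 381 CPM and were themselves below control (-0.70, adjusted p = 0.00217). Against them MAVS was not called lower with IFNa (-0.48, adjusted p = 0.0531), but was after GC correction (-0.50, adjusted p = 0.0204). In all, 8 of 15 tested sensing genes rose and 2 fell. STING1 (0.25 ± 0.10) and CGAS, at 0.417 and 1.3 CPM against 0.948, 0.671 and 0.652 CPM in controls, were not called. TBK1, the kinase of interferon induction, was called at 0.44 ± 0.13 (adjusted p = 0.0362), but not after GC correction, at 0.04 (adjusted p = 0.744). Counts sufficed to test 1 of 11 interferon genes, IFNE, which was not called (0.64 ± 0.47, adjusted p = 0.332) but passed without control replicate 1 (adjusted p = 0.00509).

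Antigen presentation by MHC class I rose in 13 of 18 genes, with a median log2 fold change of 0.71, and 10 rose under every setting. B2M, the light chain, had 3844 and 3415 CPM with IFNa, against 1578, 1256 and 1409 CPM in controls (1.36 ± 0.12, adjusted p = 7.24e-05). HLA-B and HLA-C rose by 0.80 each (SE 0.11 each) and HLA-F by 1.14 ± 0.15, and HLA-C by 1.21 after GC correction, although counts of these polymorphic and similar genes are uncertain. The peptide pump TAP1 (1.00 ± 0.13) and the proteasome subunit PSMB9 (1.12 ± 0.11) rose, as did NLRC5 (0.82 ± 0.12), the activator of class I genes. The loader TAPBP was called lower (-0.31 ± 0.09, adjusted p = 0.0364), and the direction turned to 0.18 with GC correction (adjusted p = 0.243). Of 8 tested MHC class II genes, which professional antigen-presenting cells carry, 0 were called by edgeR's test, 2 had an unadjusted p below 0.05, DESeq2 called 1, and the median was 0.17.

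Of 12 tested chemokines of the list 2 rose and 2 were lower. Outside the list CXCL13 (log2 0.99 ± 0.14, adjusted p = 0.00234) and CCL8 (2.03 ± 0.26, adjusted p = 0.00102, on 28 control counts) were called higher in every setting. Both were named after their values were seen. CXCL10, a T cell attractant and interferon target, had 22.4 and 19.6 CPM with IFNa, against 6.46, 5.10 and 4.24 CPM in controls (log2 1.97 ± 0.20, adjusted p = 0.000188). CXCL11, of the same receptor, had 1.86 and 2.35 CPM against 0.646, 0.336 and 0.407 CPM in controls (2.10 ± 0.33, adjusted p = 0.0032), and missed only with control replicate 1 as the only control. The neutrophil attractants CXCL1 and CXCL2 were lower, at -0.60 ± 0.13 (adjusted p = 0.0144) and -0.50 ± 0.11 (adjusted p = 0.0118). CXCL1 missed without IFNa replicate 1 (adjusted p = 0.126) and without IFNa replicate 2 (0.0714), and CXCL2 was not called after GC correction (-0.08, adjusted p = 0.726). CXCL8 was level at 0.00 ± 0.13, but lower after GC correction (-0.39, adjusted p = 0.00405). CCL5, a further T cell attractant, overlapped between the groups, with 2.22 and 2.51 CPM with IFNa against 2.50, 2.22 and 2.36 CPM in controls.

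Targets of NF-kB, the factor of inflammatory signalling, were mostly lower, where 10.9% of all tested genes were lower. Of 15 tested targets 9 were called lower and 1 higher (BIRC3, 0.65 ± 0.14), with a median of -0.46. With GC correction 8 were lower and 2 higher, with a median of -0.22, and against the BX795 libraries 11 were lower and 0 higher. BX795 itself stood above control for 11 of these genes and below for 0, with a median of 0.38, where 20.2% of all tested genes were higher and 21.9% lower with BX795 (42.1% in all). SOD2, a mitochondrial superoxide dismutase, had 5224 and 5647 CPM with IFNa, against 8608, 8988 and 10819 CPM in controls (-0.80 ± 0.11, adjusted p = 0.00192). SOD2 has no GC value here, so GC correction left it as it was. It alone of the 9 passed without IFNa replicate 1 and with control replicate 1 as the only control. TNFAIP2 was at -0.73 ± 0.13 and IER3, an early response gene, at -0.73 ± 0.15, and GC correction took them to -0.35 and -0.47 and BIRC3 to 0.29. RELB and NFKB2, subunits of the factor named after their values were seen, were called without GC correction and not with it (adjusted p = 0.963 and 0.308).

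Of the death and inflammasome genes 6 of 13 rose and 1 fell. The death ligand TNFSF10 (TRAIL) had 71.0 and 63.3 CPM with IFNa, against 32.3, 27.5 and 33.2 CPM in controls (log2 1.12 ± 0.12, adjusted p = 0.000331). CASP1, the inflammasome protease, rose by 1.22 ± 0.15 and MLKL, the pore former of necroptosis, by 0.86 ± 0.15. The linker of death receptors to mitochondria, BID, was lower at -0.56 ± 0.12 (adjusted p = 0.0133). MLKL and BID missed without IFNa replicate 1 (adjusted p = 0.074 and 0.201).

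Genes of the differentiated hepatocyte were lower in part. Of 29 tested markers 14 were called lower and 1 higher, with a median log2 fold change of -0.51. Among all tested genes 10.9% were lower and 11.9% higher. With GC correction 13 markers were lower and 1 higher, and 11 were lower in both fits. ASGR1, the asialoglycoprotein receptor, was at -0.91 ± 0.20 and the lipoprotein component APOC3 at -0.82 ± 0.17, and after GC correction at -0.58 and -0.47. ALB, with 6041 and 6241 CPM with IFNa against 7391, 8195 and 6851 CPM in controls, was not called (-0.28 ± 0.11, adjusted p = 0.0858), but was after GC correction (-0.62, adjusted p = 0.00921). The member that rose was TDO2, the first enzyme of tryptophan breakdown, with 142 and 134 CPM against 68.6, 68.3 and 56.0 CPM in controls (1.10 ± 0.16, adjusted p = 0.00197). TDO2 missed with control replicate 1 as the only control. The count of lower markers rested on the libraries: it was 0 without IFNa replicate 1, 5 without IFNa replicate 2, 6 without control replicate 2, and 0 with control replicate 1 as the only control.

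Of the acute phase genes, which inflammation drives in liver, 8 of 19 were called lower and 0 higher, with 7 lower after GC correction, and 0 lower without IFNa replicate 1. Over all tested genes 10.9% were lower with IFNa than in controls. The list was not lower against the BX795 libraries, where 7 were called higher with IFNa and 0 lower. BX795 itself was below control for 14 of the 19 and above for 0 (median -0.66). SAA2, a serum amyloid, had 791 and 921 CPM with IFNa, against 1258, 1404 and 1472 CPM in controls (-0.69 ± 0.11, adjusted p = 0.00413), and its near-identical neighbour SAA1 was at -0.71 ± 0.17. The haem carrier HPX was at -0.97 ± 0.20. CRP was not called (-0.39 ± 0.17, adjusted p = 0.109).

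Of 38 phase I enzymes 8 were higher and 4 lower with a median of 0.06, of 30 phase II enzymes 2 were higher and 3 lower, and of 21 transporters 0 were higher and 3 lower, where 11.9% of all tested genes were higher and 10.9% lower. After GC correction 6 phase I and 6 phase II enzymes were lower. CYP2B6, an inducible P450, had 0.305 and 0.275 CPM with IFNa, against 1.21, 1.61 and 0.733 CPM in controls (log2 -2.02 ± 0.33, adjusted p = 0.00441), and missed only without IFNa replicate 1. CYP2J2, an arachidonate epoxygenase, had 8.39 and 8.67 CPM against 4.18, 3.89 and 4.15 CPM in controls (1.06 ± 0.18, adjusted p = 0.00478). Both genes kept their calls after GC correction and their groups did not overlap, but CYP2J2 missed with control replicate 1 as the only control. CYP1A1 rose by 1.25 ± 0.26 (adjusted p = 0.133 without IFNa replicate 1), whereas its neighbour CYP1A2 was at -2.18 ± 0.72 from under 2 CPM and was not called after GC correction (adjusted p = 0.0647). CYP3A4, the main drug-oxidizing P450 of adult liver, was low, with 3.19 and 2.32 CPM against 1.77, 1.88 and 1.38 CPM in controls, and was not called (adjusted p = 0.0678). UGT1A1, which conjugates bilirubin, fell (-0.57 ± 0.13, adjusted p = 0.0142), as did the organic anion transporter gene SLC22A7 (-1.51 ± 0.32, adjusted p = 0.012), both missing without IFNa replicate 1 (adjusted p = 0.203 and 0.154). Of the liver regulators HNF4A was not called (0.04 ± 0.12), and CEBPB was called lower at -0.81 but not after GC correction (-0.16, adjusted p = 0.0832).

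**Figure D2:**
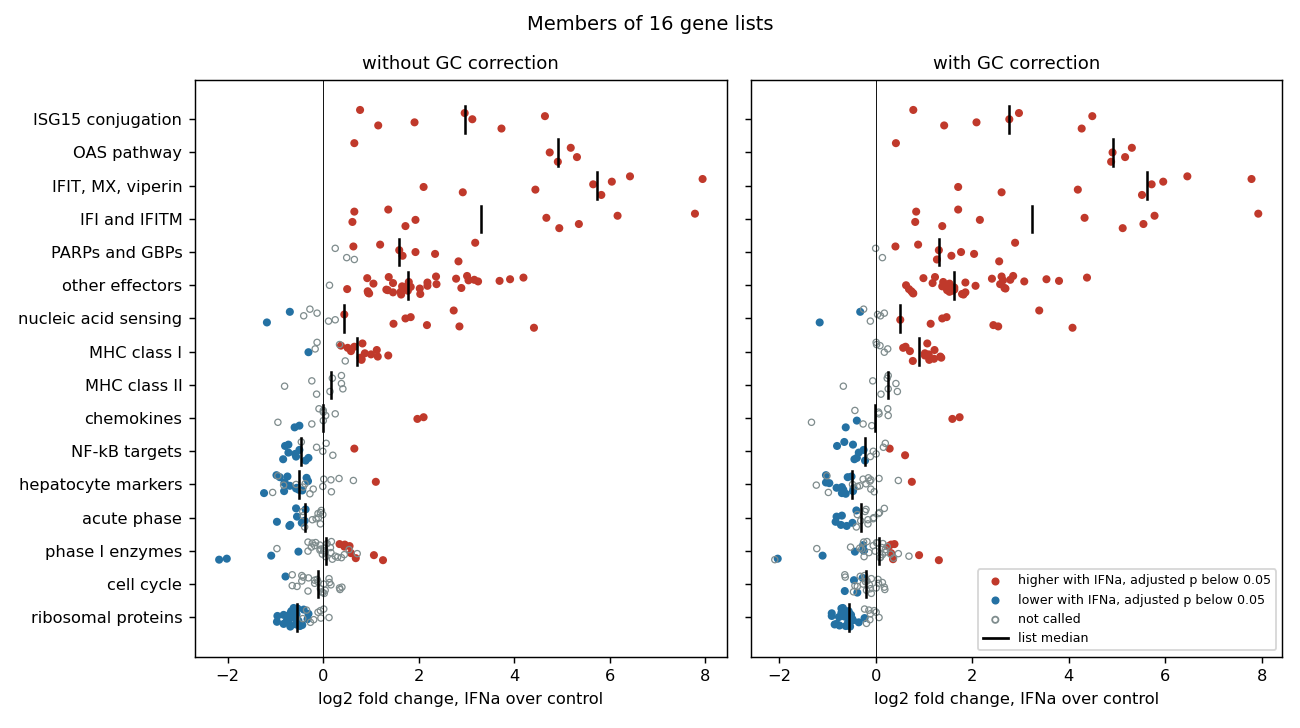
Log2 fold change, IFNa over control (x axis), of each tested member of 16 gene lists (rows), without GC correction on the left and with it on the right, with the list median as a black bar. The 6 lists of interferon stimulated genes lie to the right in both panels, and ribosomal protein genes lie to the left in both.

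Cytosolic ribosomal protein genes were mostly lower in a list of 36, which does not hold all of them. Of all tested genes 10.9% were lower, whereas 27 of these 36 were called lower and 0 higher, with a median of -0.56. With GC correction 28 were lower (median -0.55), and 25 were lower in both fits. RPLP0, a protein of the ribosomal stalk, had 506 and 590 CPM with IFNa, against 854, 1004 and 914 CPM in controls (log2 -0.75 ± 0.11, adjusted p = 0.00224). RPS6, a protein of the small subunit, had 229 and 248 CPM against 362, 358 and 377 CPM in controls (-0.62 ± 0.10, adjusted p = 0.00357). Both IFNa libraries lay below all 3 controls for 31 of the 36, a pattern that 24.7% of all tested genes had. The list took 0.828% and 0.926% of counts with IFNa, against 1.21%, 1.32% and 1.24% in controls. The count of calls was 0 without IFNa replicate 1 and 4 with control replicate 1 as the only control. Many ribosomal protein genes have processed copies in the genome, so that the counting of each alone is uncertain.

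Of 25 cell cycle genes 1 was called (E2F1, lower, and not after GC correction), but 4 were lower after GC correction (median -0.21), and of 14 genes of the integrated stress response 1. Of 17 ER chaperone and unfolded protein response genes 4 were lower, and 7 after GC correction, among them XBP1 (-0.43 ± 0.11, adjusted p = 0.282 without IFNa replicate 1), and HSPA5 was not called (0.19 ± 0.08). Of 22 cholesterol synthesis genes 6 were lower and 1 higher, with TM7SF2 at -1.20 ± 0.17 and at -0.72 after GC correction. Of 16 fat oxidation genes 3 were lower and 3 higher. Over all tested genes 11.9% were higher and 10.9% lower, and after GC correction 9.03% and 9.4%. Markers of cell types that the culture could hold were read as well. Of 4 tested biliary or progenitor markers, SPP1 was higher (0.91 ± 0.15) and KRT19 lower (-0.79 ± 0.18), both also after GC correction (0.64 and -0.47). Neither SPP1 nor KRT19 passed without IFNa replicate 1. Of 6 mesenchymal markers DCN and LUM were called higher and COL1A1 lower, whereas after GC correction 0 were higher and 2 lower, COL1A1 (-0.66, adjusted p = 0.0467) and COL3A1 (-0.76, adjusted p = 0.0426). Of endothelial markers KDR rose (0.59 ± 0.09, adjusted p = 0.0671 without IFNa replicate 1) while VWF and CDH5 had under 10 counts in each group. PECAM1, the other endothelial marker tested, went the other way but was not called (-1.48 ± 0.72, adjusted p = 0.153). It had 9 counts in all with IFNa and 22 in controls. Of immune markers CD14 was called lower (-0.68 ± 0.20), but not after GC correction (adjusted p = 0.0637), and PTPRC, the pan-leukocyte marker, had 6 counts in all with IFNa and 11 in controls.

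The BX795 libraries of the same batch gave a second comparison within it. Against BX795, 71 of the 76 interferon stimulated genes were called higher with IFNa and 0 lower, where 6.06% of all tested genes were higher and 5.39% lower (11.4% in all), with a median of 1.98. The 2 comparisons share the IFNa libraries. Ribosomal protein genes were lower in 12 of 36 against BX795, with a median of -0.28, and hepatocyte markers were higher in 5 and lower in 7 of 29. BX795 itself was below control for 17 and above for 1 of the ribosomal protein genes, and below for 11 and above for 5 of the hepatocyte markers. CXCL10 and CXCL11, higher with IFNa than in controls, were not called against BX795 (0.27 ± 0.19 and -0.52 ± 0.27), where they had 16 to 18.6 CPM and 2.51 to 3.3 CPM.

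In a fit of all 19 libraries the IFNa response was set against the response to ADAR siRNA, each taken over the siNC controls of its own batch, so that the contrast crosses batches. The interferon stimulated genes were higher in the IFNa response for 66 of 76 and lower for 0, where 15.5% of all tested genes were higher and 13.2% lower (28.7% in all), with a median difference of 1.19. In the ADAR siRNA response itself the list had a median of 0.94. ADAR is a member of the list and the target of that siRNA, at -2.02 with ADAR siRNA and a difference of 3.71. Its place among the 66 therefore follows from the design. STAT2 had a difference of 1.00 ± 0.08 (adjusted p = 2.59e-07) and 0.03 ± 0.06 with ADAR siRNA. CCL5 went the other way, with a difference of -4.65 ± 0.54 (adjusted p = 1.73e-05), and 4.66 ± 0.46 with ADAR siRNA. For CXCL10 the difference was not called, at -0.10 ± 0.28 (adjusted p = 0.838).

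By size alone, the 12 largest rises held 8 interferon stimulated genes and 4 others, and the 12 largest falls held no gene of any list. Among the others LINC02574, a long noncoding RNA, had 3.72 and 3.30 CPM with IFNa, against 0.0431, 0.134 and 0 CPM in controls, where it had 3 counts. GTF2IP1, a copy of GTF2I, had 11.9 and 9.46 CPM with IFNa and no counts in controls, but 7.53 to 14 CPM in the BX795 libraries. The readthrough genes PEDS1-UBE2V1 and RPS10-NUDT3 were at or near 0 in controls, and NUDT3, which shares sequence with the last of these, had 60.3 and 57.1 CPM against 114, 90.4 and 99.4 CPM in controls. Such copies and readthrough genes share reads with their neighbours, and their separate counts are uncertain. The largest fall was MIR3648-1, of 83.9% GC, at 6.25 and 12.8 CPM with IFNa, against 71.7, 113 and 93.5 CPM in controls (log2 -3.30 ± 1.01, adjusted p = 0.0394), and it was not called after GC correction (-1.86, adjusted p = 0.0761). Of the protein-coding falls, the linker histone gene H1-5 had 2.05 and 3.18 CPM against 8.83, 15.9 and 13.3 CPM in controls (-2.28 ± 0.34, adjusted p = 0.0024), and missed without IFNa replicate 1 (adjusted p = 0.0544). LTB, a cytokine of lymphoid tissue, was at -2.28 ± 0.56 from 0.806 to 1.47 CPM in controls, and missed without IFNa replicate 1 (adjusted p = 0.236).

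**Figure D3:**
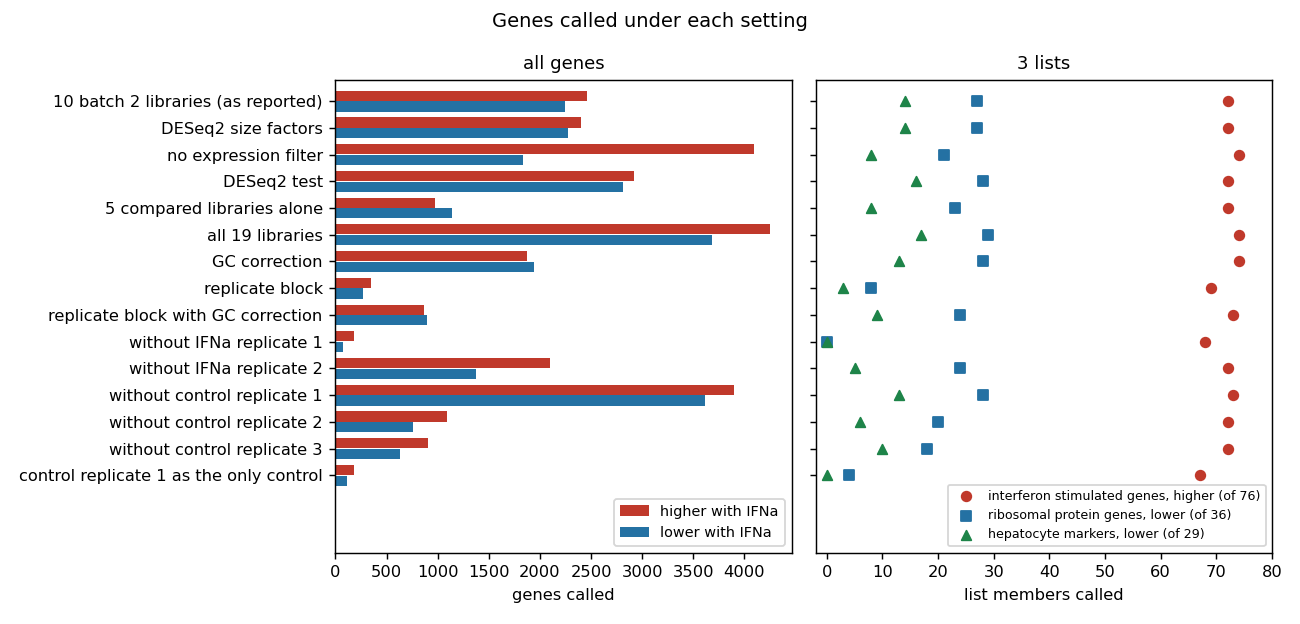
Number of genes called (x axes) under each of 15 settings (rows), for all genes on the left and for 3 lists on the right. Interferon stimulated genes stay between 67 and 74 of 76, while all calls range from 263 to 7932 and the lower ribosomal protein and hepatocyte genes drop to 0 without IFNa replicate 1.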

How the data were processed

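RNA was measured by sequencing of ribosome-depleted, directional libraries. The authors deposited expected counts per gene, 1 column per library, made with STAR and Salmon on build GRCh38.p14 per the submitters' processing notes. The sources used here give no version, setting or annotation release. A share of 94.82% of the values was whole to within 0.005, and values were rounded to whole counts. Symbols were matched by Ensembl ID for 61463 of 78894 genes. Total counts of the 5 libraries ranged from 13.08 M to 34.72 M (M, mega).

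The test across genes was that of edgeR 4.0.16 in R 4.3.3 (TMM scaling, filterByExpr, quasi-likelihood F test, Benjamini-Hochberg adjustment, threshold 0.05), in a model of the 10 batch 2 libraries with 4 group means and 6 residual degrees of freedom. All adjusted p-values come from this test unless named. CPM are TMM scaled, and errors are standard errors. The GC content of a gene was the median over its GENCODE transcripts, known for 88.8% of tested genes. GC correction subtracted a lowess curve (span 0.3) of level on GC content from each library and left genes without a GC value as they were, among them 6 of the genes called higher and 4 of those called lower in every setting. The code was tested on simulated data. Promoters are RefSeq entries of the same build.

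Named genes were any member of the interferon, sensing, MHC class I and chemokine lists, up to 4 called members with the smallest p per direction of every other list, a few genes of interest whether called or not (ALB, CYP3A4, HNF4A, CRP, HSPA5), and the 12 largest rises and falls with a mean of at least 1 CPM and no overlap between groups. Members and lists were chosen with earlier results of these data known. Alternatives were DESeq2 size factors, the DESeq2 1.42.0 test, no filter, other sets of libraries, GC correction, a replicate block and leaving out each library. Some items are not reported here.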

Additional observations from a re-analysis of the deposited data

How the results depend on the processing

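The interferon stimulated genes called higher stayed between 67 and 74 of 76 over the 14 alternatives. The total of genes called, 4705, moved more: 2114 in the 5 compared libraries alone (975 higher, 1139 lower), 7932 in all 19 libraries (4250 and 3682), and 291 with control replicate 1 as the only control (181 and 110). Without an expression filter 4096 were higher and 1833 lower. Leaving out 1 library gave 263 to 7514 genes, 185 to 3901 higher and 78 to 3613 lower. The replicate block gave 612 genes (344 higher, 268 lower), and 1763 with GC correction as well (870 and 893). Numbers 1 and 2 are shared by both groups but nothing in the labels pairs the libraries. Deviations of same-numbered libraries correlated at 0.42 and 0.20, and those of control replicate 3 and IFNa replicate 2 at 0.24. With 2 IFNa libraries their deviations mirror each other, so these values cannot show a pairing. Genes called against BX795, 2371 in all, were 4354 in all 19 libraries, 3815 with GC correction, 1231 under the replicate block and 884 to 2964 with a library left out. The difference from the ADAR siRNA response, 6638 genes, became 3445 with control replicate 1 as the only control and 3275 to 8590 with a library left out. Hepatocyte markers called lower, 14, were 8 without a filter, 8 in the 5 libraries alone, 3 under the replicate block, 9 under the block with GC correction, 0 to 13 with a library left out and 0 with the single control. Directions turned for SOCS3 (0.18 with GC correction, 0.15 with the block as well), TAPBP (0.18 and 0.16) and CXCL8 (-0.39 and -0.42). Settings with fewer libraries have fewer degrees of freedom by construction; elsewhere the cause was not tested. Depth limits genes at or near 0 in controls, such as RSAD2, whose folds are imprecise.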

Other observations

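Some of the genes outside the lists that were called in every setting by edgeR's quasi-likelihood test are given as examples, picked after their values were seen. They describe no group. RNF213, a giant ubiquitin ligase, had 1426 and 1344 CPM with IFNa, against 586, 618 and 512 CPM in controls (log2 1.27 ± 0.10, adjusted p = 1.61e-05). ZNFX1, a helicase that binds viral RNA, was at 1.70 ± 0.10 and PNPT1, a mitochondrial RNA-degrading enzyme, at 1.58 ± 0.13. The butyrophilins BTN3A1 (1.19 ± 0.14), BTN3A2 (0.81 ± 0.11) and BTN3A3 (1.02 ± 0.11), which present to gamma delta T cells, rose, although they are similar in sequence. MYD88, the adaptor of Toll-like receptors, was at 0.80 ± 0.11 and the peptide transporter gene SLC15A3 at 2.42 ± 0.18. THBS1, a matrix glycoprotein, had 2367 and 2293 CPM with IFNa, against 1162, 1140 and 964 CPM in controls (1.10 ± 0.11, adjusted p = 0.000164).

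Among the genes lower in every setting, EEF2, the elongation factor that moves the ribosome, had 1067 and 1090 CPM with IFNa, against 2006, 2591 and 2034 CPM in controls (log2 -1.04 ± 0.12, adjusted p = 0.000416). EEF1A1, which brings tRNA to the ribosome, had 3334 and 3420 CPM against 5158, 5480 and 5203 CPM in controls (-0.65 ± 0.09, adjusted p = 0.00157). EEF1G (-0.67 ± 0.09), EIF4B (-0.82 ± 0.08), PABPC4 (-0.83 ± 0.11) and RPS29 (-0.81 ± 0.12), a ribosomal protein gene outside the list of 36, fell as well. Each was also lower with IFNa than in the BX795 libraries, at -0.80, -0.84, -0.66, -0.79, -0.71 and -0.66 (log2) in the order named. Both IFNa libraries lay below every control for all 6. These genes were picked from those called lower in every setting, so keeping their calls with a library left out follows from that choice. The lack of overlap is not separate from that choice either, and the comparison with BX795 shares the IFNa libraries.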
